A study of Mus musculus with 160 samples.

Results

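Imprinted genes are expressed mainly or solely from the copy inherited from the mother or from the copy inherited from the father. The 35 imprinted genes described here were chosen by name from genes known to be imprinted in mouse, and each was found through the GENCODE M21 symbol of its Ensembl gene identifier, so that 35 of the 46078 genes counted are members. The choice was made with earlier results of these data known. By the parental copy that most tissues use, 13 are maternally expressed and 22 paternally expressed. The counts do not separate the parental copies, so every level below is the sum over both.

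The study sorted cells from the aorta-gonad-mesonephros region (AGM) of mouse embryos that carry the reporter allele Gata3-GFP +/-, in which GFP is knocked in at Gata3, so each group shares 1 Gata3 copy replaced by the reporter. Each of 4 cell types was split into 2 fractions by GFP, Gata3-GFP+ and Gata3-GFP-, written GFP+ and GFP- below, which gives 8 populations. Endothelial cells (EC; Cdh5+, CD41-, CD45-) and haematopoietic cells (HC; CD41+ and CD45+ by the labels, CD41 or CD45 by the study's methods) came from E10.5 embryos, and mesenchymal cells (MC; Pdgfrb+) and sympathetic nervous system cells (SNS; Ngfr+) from E11.5 embryos. RNA of 20 pools of 20 cells per population was amplified and sequenced by Smart-seq2, from several embryos pooled, and the count table does not say which embryo or sort a pool came from. Stage and cell type cannot be told apart between E10.5 and E11.5, so cell types were compared within a stage.

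Imprints are DNA methylation marks laid down in the germ line that survive the reprogramming of the early embryo, in part through the zinc finger protein ZFP57 and its cofactor TRIM28. Imprinted genes lie in domains in which a shared control region, a long non-coding RNA or shared enhancers set which parental copy is active.

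Of the 160 pools, 7 failed the limits on reads, share of reads on genes, mitochondrial share and spike-in share. The others, called passing, were 19 GFP+ and 20 GFP- EC pools, 20 and 20 HC pools, 20 and 17 MC pools, and 18 and 19 SNS pools. Gene counts per passing EC pool lay between 1400824 and 6006894 (median 3685639) with GFP and between 1822577 and 5732291 (median 2801408.5) without. HC pools held 1460179 to 16004756 (median 3180193) and 2010549 to 15700184 (median 3712266.5). MC pools held 2646033 to 8942715 (median 4225140.5) and 2054295 to 7361546 (median 3640994), and SNS pools 2816095 to 6541797 (median 4573353.5) and 3326393 to 9147907 (median 4353460). Depth overlapped between the fractions of each cell type. The counts are amplified reads without molecular identifiers, so they are not counts of independent molecules.

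Sorting genes were read in every pool before any member was compared. Levels are given as counts per 1000000 gene counts (CPM) after scaling by trimmed mean of M-values (TMM). Cdh5 had medians of 1003.9 and 432 CPM in GFP+ and GFP- EC pools and of 9.71 and 4.06 in HC pools, and Ptprc, which codes for CD45, medians of 2.96 and 4.24 CPM in EC pools and of 209 and 431 in HC pools. Itga2b, which codes for CD41, had a median of 233 CPM in GFP+ HC pools and of 8.68 in GFP- HC pools, so CD41 RNA was low in the second population. At E11.5, 12 passing pools carried the sorting genes of the other cell type, 3 in each population. In the 3 pools labelled GFP+ MC, Pdgfrb lay between 1.09 and 12.4 CPM (median 8.13) and Ngfr between 291 and 324 (median 317). In the 3 labelled GFP- MC, Pdgfrb lay between 0.956 and 1.90 CPM (median 1.61) and Ngfr between 29 and 111.08 (median 73). The 3 labelled GFP+ SNS had Pdgfrb at 116.9 to 131.3 CPM (median 125.9) and Ngfr at 0.907 to 7.24 (median 5.68), and the 3 labelled GFP- SNS had Pdgfrb at 136.5 to 250 CPM (median 199) and Ngfr at 4.25 to 7.76 (median 6.62). All 12 stood apart from the other pools of their label in both genes.

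The other 62 passing pools of E11.5 are called matching below. Among them Pdgfrb lay between 167 and 293 CPM (median 251) in GFP+ MC, between 110.1 and 236 (median 172) in GFP- MC, between 0 and 3.55 (median 0.598) in GFP+ SNS and between 0.713 and 28.9 (median 4.24) in GFP- SNS pools. Ngfr lay between 0.103 and 11.4 CPM (median 3.09), 0.241 and 17.4 (median 1.34), 46 and 153.8 (median 98.1), and 189 and 340 (median 266) in the same order. No pool was moved to another group. Levels at E11.5 are given over the matching pools unless stated. A member's E11.5 difference that passed in either set is given over the matching pools and over all passing pools. Where a single E11.5 difference is given, it is over the matching pools unless stated. The matching set was defined after the values were seen.

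**Figure D1:**
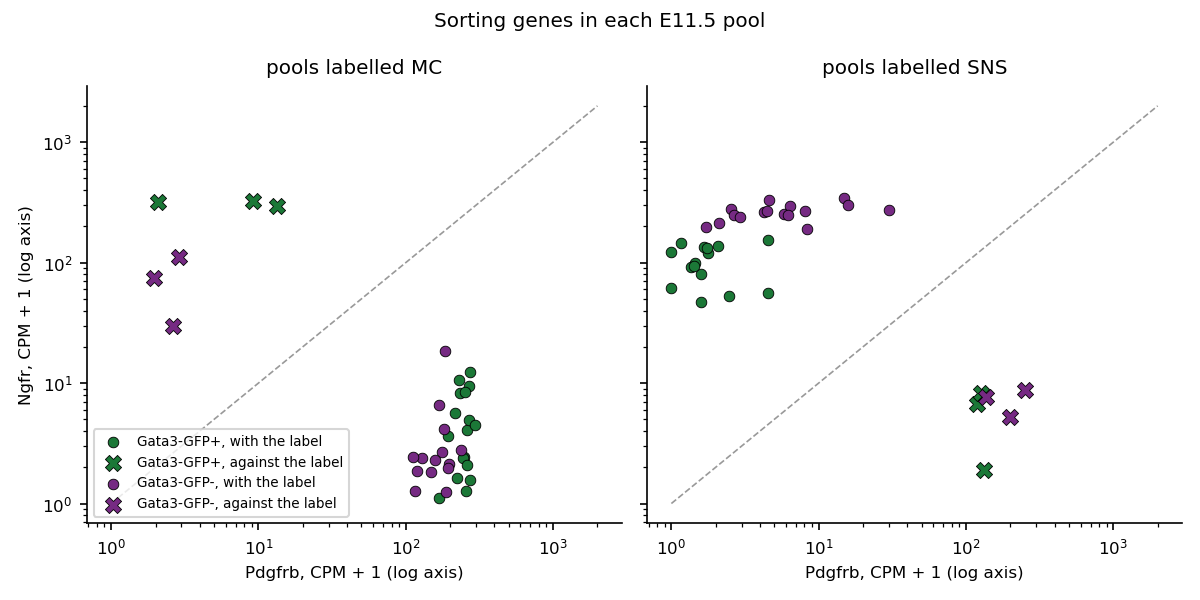
Level of Ngfr against Pdgfrb (CPM + 1, log axes) in each passing E11.5 pool, in a panel for pools labelled MC and a panel for pools labelled SNS; green is GFP+ and purple GFP-. The 12 crosses lie on the side of the dashed line of equal levels opposite to their label.

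Gata3, the gene of the reporter, served as the check of the GFP label. It ranged from 28.6 to 174 CPM (median 78.2) in GFP+ EC pools and from 4.38 to 29.7 (median 10.49) in GFP- EC pools, and from 12.7 to 149.3 (median 45.2) against 1.79 to 12.9 (median 7.05) in HC pools. Gata3 in matching MC pools was at 19.8 to 70.6 CPM (median 36) with GFP and at 2.53 to 19.1 (median 8.99) without, and in SNS pools at 111.5 to 307 (median 189) and at 11.2 to 94.3 (median 39.4). Every matching GFP+ pool of MC and of SNS lay above every GFP- pool of its cell type, and in EC and HC a few pools overlapped. The pools against their labels had the reverse order, with medians of 33.2 and 354 CPM in GFP+ and GFP- MC and of 12.7 and 45.4 in SNS. Each difference below is a log2 fold change of GFP+ over GFP- pools with its standard error (SE), from the quasi-likelihood test of edgeR, and a gene passed where its adjusted p (Benjamini-Hochberg, over all genes tested) was under 0.01. Gata3 differed by 2.66 (SE 0.22, adjusted p 9.61e-14) in EC and 2.89 (SE 0.26, adjusted p 3.37e-11) in HC. In MC it differed by 1.88 (SE 0.22, adjusted p 8.98e-08) in matching and -0.66 (SE 0.52, adjusted p 0.496) in all passing pools, so the 6 pools against their labels change the sign, and in SNS by 2.10 (SE 0.23, adjusted p 3.22e-08) in matching and 1.85 (SE 0.31, adjusted p 1.21e-04) in all passing pools. The p-values measure the spread between pools. By the study's methods the E10.5 pools of a population share 3 to 5 biological replicates, to which the table does not tie them, so pools are not independent embryos.

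Summed over the 35 members, the median level was 18610 CPM in GFP+ EC pools, or 1.86% of gene counts, and 8641 CPM (0.864%) in GFP- EC pools. In HC pools the medians were 3393 CPM (0.339%) and 667 CPM (0.0667%). Maternally expressed members summed to a median of 7668 CPM and paternally expressed members to 10837 CPM in GFP+ EC pools, against 2192 and 6491 in GFP- EC pools, 1133 and 2241 in GFP+ HC pools, and 145.2 and 510 in GFP- HC pools. The E11.5 sums in matching pools were 5599 and 7711 CPM in GFP+ MC, 3809 and 7067 in GFP- MC, 6279 and 3196 in GFP+ SNS, and 3447 and 4194 in GFP- SNS pools. In these CPM sums the maternally expressed median exceeded the paternally expressed one only in GFP+ SNS, of the 8 populations. Cdkn1c alone had a median of 4833 CPM there. The sums are not divided by exon length, so this order need not hold per kilobase. Levels of different genes were compared per kilobase of exon (kb). H19 was the most abundant member on that scale in both MC populations, both HC populations and GFP+ EC, where its median was 2581 CPM per kb against 1304 for Igf2, Mest in GFP- EC with 685 CPM per kb, and Cdkn1c in both SNS populations with 2370.1 and 886 CPM per kb. The members Ascl2, Phlda2 and Rasgrf1 had fewer than 10 pools with 10 counts in every population, and the other 32 reached this in at least 1.

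**Figure D2:**
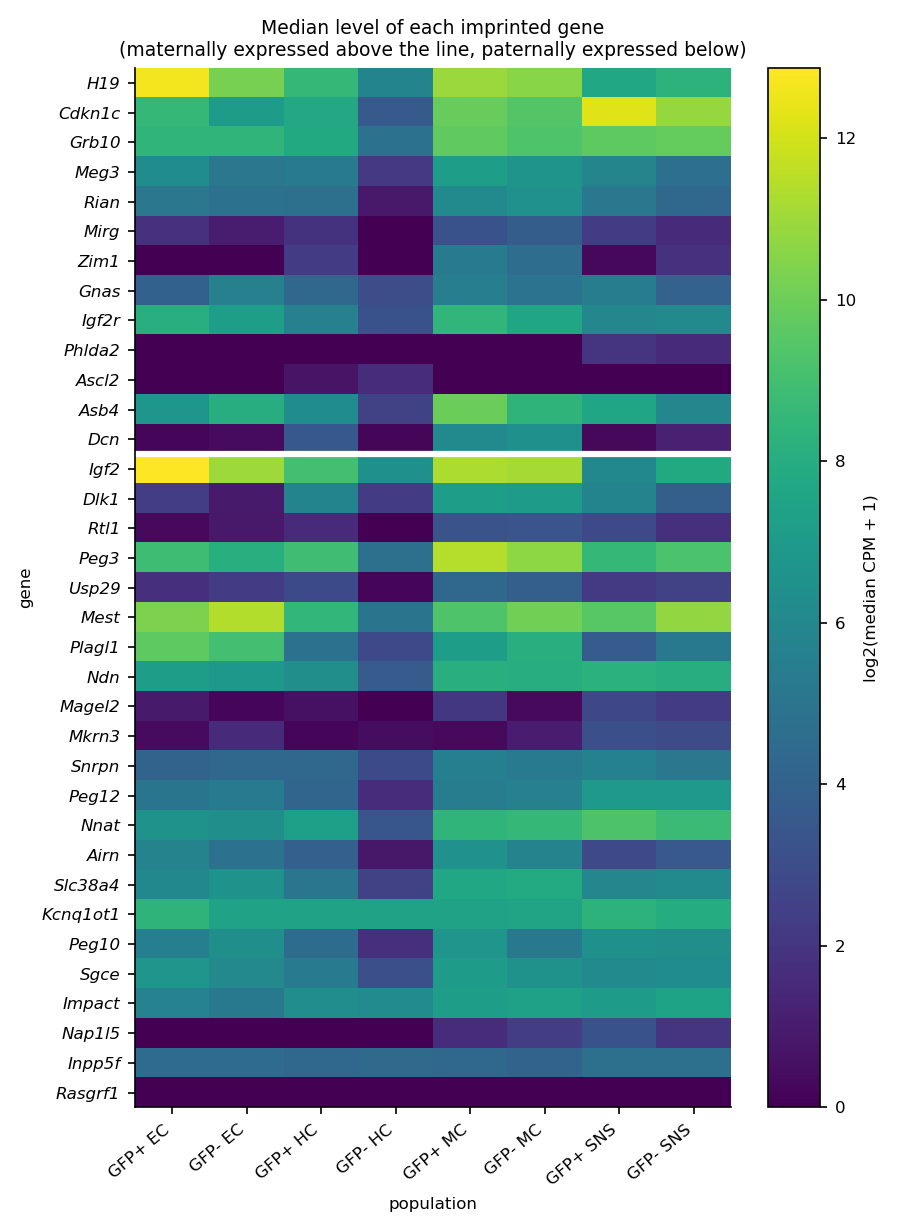
Median level of each of the 35 members in the 8 populations, as log2(median CPM + 1), with maternally expressed genes in the upper block. EC and HC medians are over all passing pools, and MC and SNS medians over the matching pools. H19 and Igf2 are brightest in GFP+ EC, Cdkn1c in GFP+ SNS, and most members are dark in GFP- HC.

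Between the EC fractions, 30 members had enough counts to be tested, and 12 passed as higher in GFP+ pools, where 19.5% of all genes tested passed as higher, and 5 as lower, where 16.5% passed. Their median log2 fold change was 0.41 beside 0.10 for all genes tested, and it was -0.23 beside -0.60 when pools were scaled by the spike-in RNAs of the External RNA Controls Consortium (ERCC). Under the ERCC scale 4 members passed as higher (Airn, Dlk1, Igf2r, Impact, Kcnq1ot1, Peg3, Plagl1 and Sgce no longer did) and 8 as lower (Grb10, Inpp5f and Slc38a4 as well), where 951 and 5685 of all 15073 genes did, the shift of the median of all genes being -0.70. Below, passing is on the TMM scale unless ERCC is named. Of the maternally expressed members 4 passed as higher and 2 as lower of 10 tested (median 0.90), and of the paternally expressed 8 and 3 of 20 (median 0.22). Summed mesenchymal markers were at 26.1 to 1669 CPM (median 95) in GFP+ and 3.88 to 72.4 (median 16.5) in GFP- EC pools, led by Col1a2 and Col3a1, with 8 of 8 tested higher. Summed mesonephric markers were at 56.5 to 206 CPM (median 91.8), led by Krt18, and 1.03 to 12.1 (median 5.35), led by Wfdc2, with 4 of 5 tested higher. Summed sympathetic and neural crest markers were at 285 to 747 CPM (median 386) and 28.4 to 148.5 (median 48.3), led by Stmn2, with 2 of 4 tested higher. Lum had a median of 0 in both EC populations, Pdgfrb, Twist1 and Twist2 in GFP- pools, and Pax2, Pax8, Phox2a and Sox10 in both. Of the endothelial markers 9 of 10 were higher and 1 lower, of the haematopoietic 5 of 9 tested higher and 1 lower, and of the erythroid 3 of 5 tested higher. Of counts on genes plus ERCC RNAs, mitochondrial genes held 6.45% to 9.13% in passing GFP+ and 4.76% to 8.54% in GFP- EC pools. ERCC RNAs held 0.613% to 2.20% and 0.602% to 1.66% in the same order. The part of these markers and shares in the member results was not tested.

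Between the HC fractions, 27 of 32 members tested passed, each of them higher in GFP+ pools, where 17.1% of all genes tested passed as higher and 9.53% as lower. A smaller share of the other imprinted genes, given below, passed, and the members were chosen with earlier results known. The median of the members was 2.82, beside 0.05 for all genes tested, and 2.82 also with Magel2, absent from every GFP- HC pool, set at its lower bound. Magel2 and Rtl1 met the filter through GFP+ HC pools alone. Mirg, Usp29 and Zim1 were also low in GFP- HC pools, so their testing leaned on GFP+ HC pools as well. With a filter of 10 counts in 20 pools, which leaves out all of these among others, 21 passed. Fewer members were tested there, so the 21 are not a share of the 32. Maternally expressed members made up 11 of the 27, of 12 tested with a median of 3.05, and paternally expressed members 16, of 20 tested with a median of 2.80. Summed mesenchymal markers were at 19 to 1131 CPM (median 382) in GFP+ and 3.74 to 176 (median 43.3) in GFP- HC pools, led by Col3a1 with medians of 109.6 and 9.56, with 9 of 10 higher. Summed sympathetic and neural crest markers were at 5.02 to 1995 CPM (median 125.2) and 1.72 to 33.7 (median 11.9), led by Elavl4, with 11 of 12 higher, and summed mesonephric markers at 2.64 to 371 CPM (median 61.8) and 0.898 to 26.1 (median 8.86), led by Krt18, with 7 of 7 tested higher. Hand2, Phox2a, Sox10, Cdh1, Emx2, Epcam, Pax2, Pax8, Ret and Wfdc2 had a median of 0 in GFP- HC pools, and Phox2a, Lhx1, Pax2 and Pax8 in GFP+ HC pools. Summed macrophage markers were at 72.4 to 11230 CPM (median 4718) and 3934 to 8166 (median 5942), led by C1qb, with 2 of 10 lower. Of the haematopoietic markers 2 were higher and 5 lower of 10, of the endothelial 6 of 10 higher, and of the erythroid 2 higher and 1 lower of 10. Pools of many cells cannot tell more cells that express a gene from more RNA per cell, and the part of the marker genes in the member results was not tested.

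Between the MC fractions in all passing pools, 5 of 33 members tested passed, each higher, where 2.21% of all genes passed as higher and 2.15% as lower, with a median of -0.03 beside -0.01. In matching pools 10 passed as higher, where 5.52% of all genes did, and 2 as lower, where 4.89% did, with a median of 0.31 beside 0.01, and under ERCC 11 and 2, where 1027 and 228 of 15226 genes did, with 0.44 beside 0.16 (Ndn and Zim1 gained and Meg3 lost as higher). On the TMM scale 6 maternally expressed members there were higher of 12 tested (median 0.43), and 4 paternally expressed were higher and 2 lower of 21 (median 0.18). Summed mesenchymal markers were at 4506 to 6242 CPM (median 5523) in GFP+ and 2888 to 4249 (median 3449) in GFP- matching MC pools, led by Col3a1, with 5 of 10 higher and 2 lower. Between the SNS fractions in all passing pools, 3 of 33 members passed as higher, where 2.01% of all genes did, and 1 as lower, where 1.86% did, with a median of 0.13 beside 0.00. In matching pools 7 passed as higher, where 4.94% of all genes did, and 5 as lower, where 5.48% did, with a median of 0.16 beside -0.01, and under ERCC 13 and 3, where 4097 and 363 of 15658 genes did, with 0.55 beside 0.44 (Kcnq1ot1, Nap1l5, Ndn, Peg10, Rian and Rtl1 were gained as higher, H19 and Peg3 lost as lower). On the TMM scale maternally expressed members there were higher in 4 and lower in 1 of 12 (median 0.93), and paternally expressed higher in 3 and lower in 4 of 21 (median 0.11). Summed sympathetic and neural crest markers were at 1946 to 3940 CPM (median 2546) in GFP+ and 1241 to 1974 (median 1603) in GFP- matching SNS pools, with 8 of 12 higher and 1 lower. Summed mesenchymal markers were at 148.3 to 853 CPM (median 526) and 921 to 1950 (median 1285), led by Postn, with 9 of 10 lower. Of the mesonephric markers 1 was higher and 3 lower of 8 tested there, and Ramp2 was lower and Coro1a higher, while Esam and Hand2 were higher in matching MC pools. Their part was not tested.

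**Figure D3:**
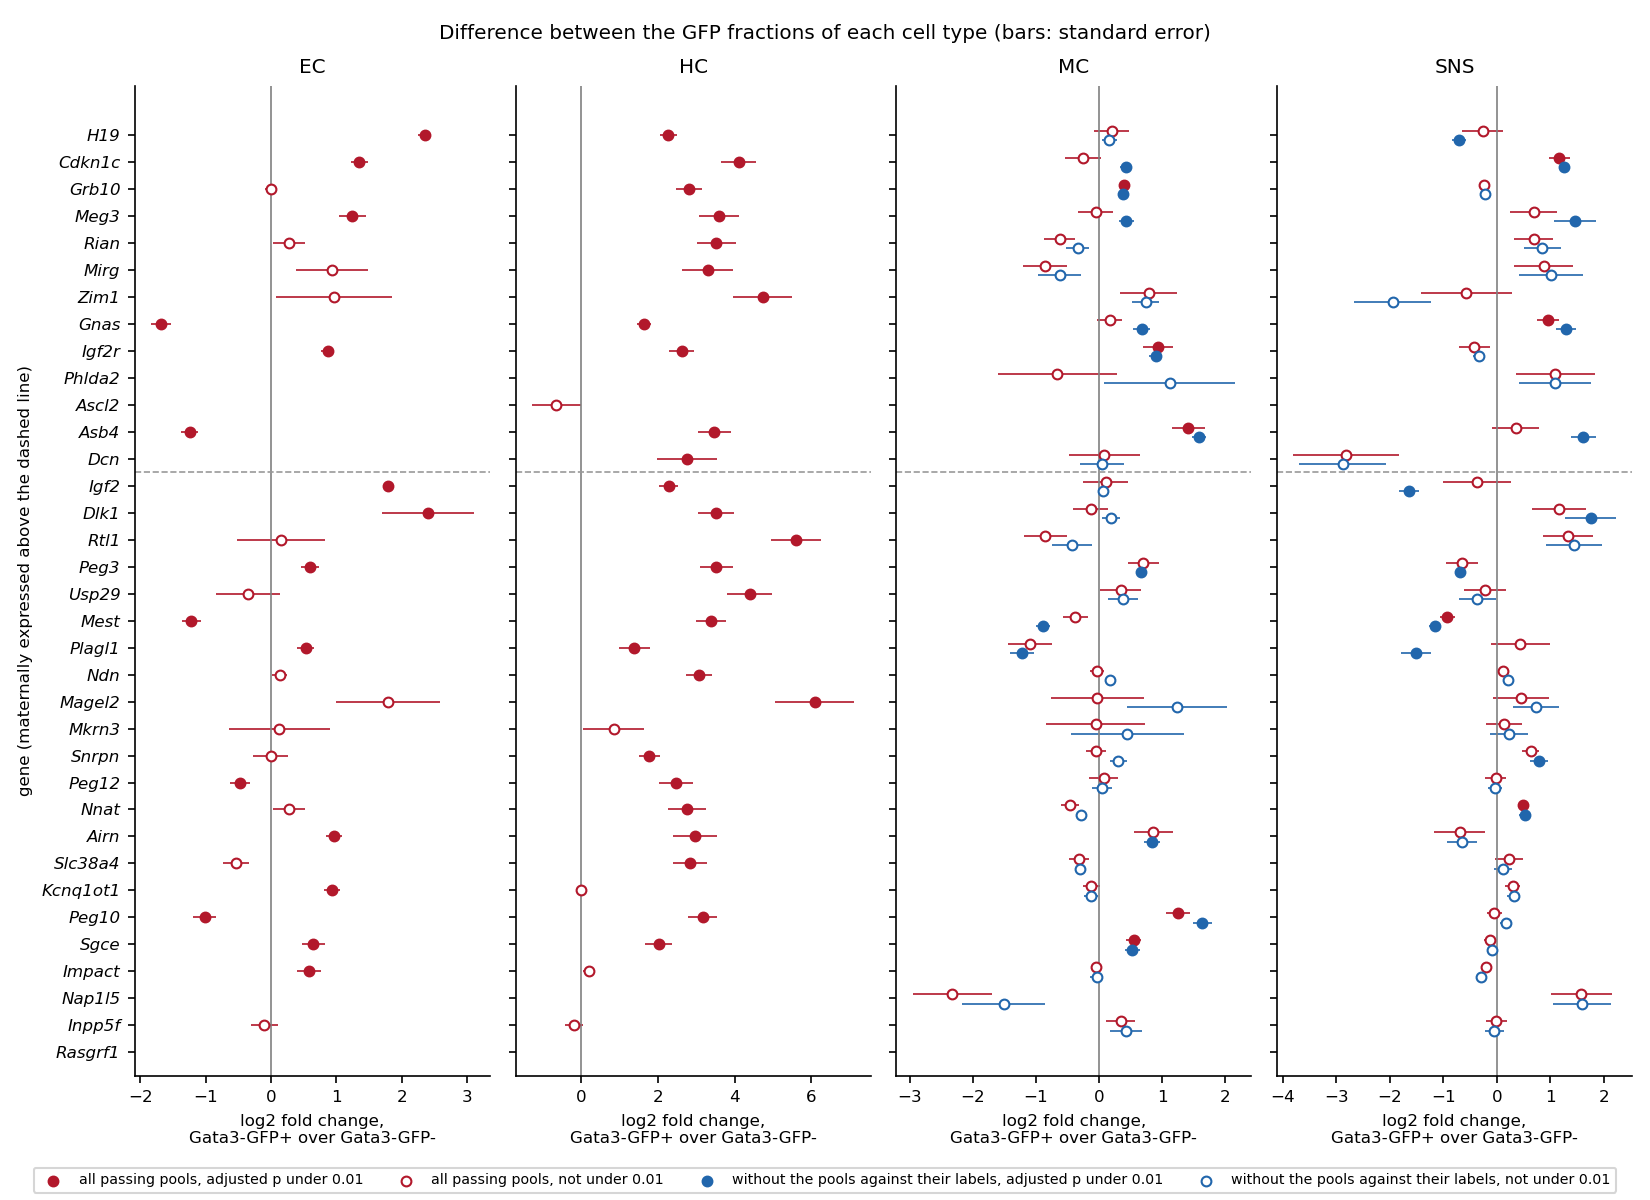
Log2 fold change of each member tested, GFP+ over GFP-, with its standard error, in a panel for each cell type; red points use all passing pools, blue points the matching pools, and filled points passed at an adjusted p under 0.01. In HC 27 filled points lie above 0, and in EC 12 lie above and 5 below on this scale, against 4 and 8 under the ERCC scale.

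H19 and Igf2 share enhancers and a control region on chromosome 7: Igf2 (chr7:142650766-142666816, paternally expressed) codes for a growth factor, and H19 (chr7:142575529-142578143, maternally expressed) is a long non-coding RNA that limits growth and from which miR-675 is cut. The hairpin of miR-483 lies within Igf2. Their mature sequences, with the seed (bases 2 to 8) in capitals, are shown because both hosts differed strongly between the fractions. The gene counts do not measure the small RNAs.
miR-675-5p: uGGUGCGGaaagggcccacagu
miR-675-3p: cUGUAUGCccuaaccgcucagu
miR-483-5p: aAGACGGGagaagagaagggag
miR-483-3p: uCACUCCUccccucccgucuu
In EC, H19 was at 4276 to 7688 CPM (median 6349) with GFP and 668 to 1856 (median 1183) without, and in HC at 93.6 to 511 (median 379) and 23.3 to 172 (median 55.2). H19 differed by 2.35 (SE 0.10, adjusted p 4.59e-22) in EC and 2.27 (SE 0.23, adjusted p 4.50e-10) in HC. Each of the 19 GFP+ EC pools lay above every GFP- EC pool, and 19 of 20 did in HC. Igf2 in EC was at 6346 to 10177 CPM (median 7463) with GFP and 1612 to 3436 (median 2042) without, and in HC at 93 to 962 (median 510.3) and 21.5 to 221 (median 87.5). Igf2 differed by 1.79 (SE 0.08, adjusted p 4.22e-22) in EC and 2.28 (SE 0.25, adjusted p 2.89e-09) in HC. The EC fractions did not overlap for Igf2 either, and 18 of 20 GFP+ HC pools lay above every GFP- HC pool.

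At E11.5 both passed in SNS alone. In MC, H19 was at 1119 to 2409.7 CPM (median 1919) with GFP and 1044 to 3254 (median 1521) without, and in SNS at 109.04 to 347 (median 205) and 267 to 460.0 (median 319). H19 differed by -0.71 (SE 0.13, adjusted p 1.59e-04) in matching and -0.27 (SE 0.39, adjusted p 0.756) in all passing pools in SNS (not passing under ERCC in either set) and was at 0.17 in MC. In matching SNS pools 12 of 15 GFP+ pools lay below every GFP- pool. Igf2 in MC was at 1768 to 2962 CPM (median 2454) with GFP and 1816 to 3092 (median 2255) without, and in SNS at 33.7 to 157.7 (median 62.6) and 137.1 to 380.0 (median 226). Igf2 differed by -1.64 (SE 0.19, adjusted p 8.98e-08) in matching and -0.37 (SE 0.63, adjusted p 0.798) in all passing pools in SNS and by 0.07 in MC, where it did not pass. In SNS 14 of 15 matching GFP+ pools lay below all 16 GFP- ones. Of the Igf2 exons, 64.6% overlap other annotated genes, 62.8% a gene on the same strand that the table does not list, and of the H19 exons 9.15% overlap other genes.

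**Figure D4:**
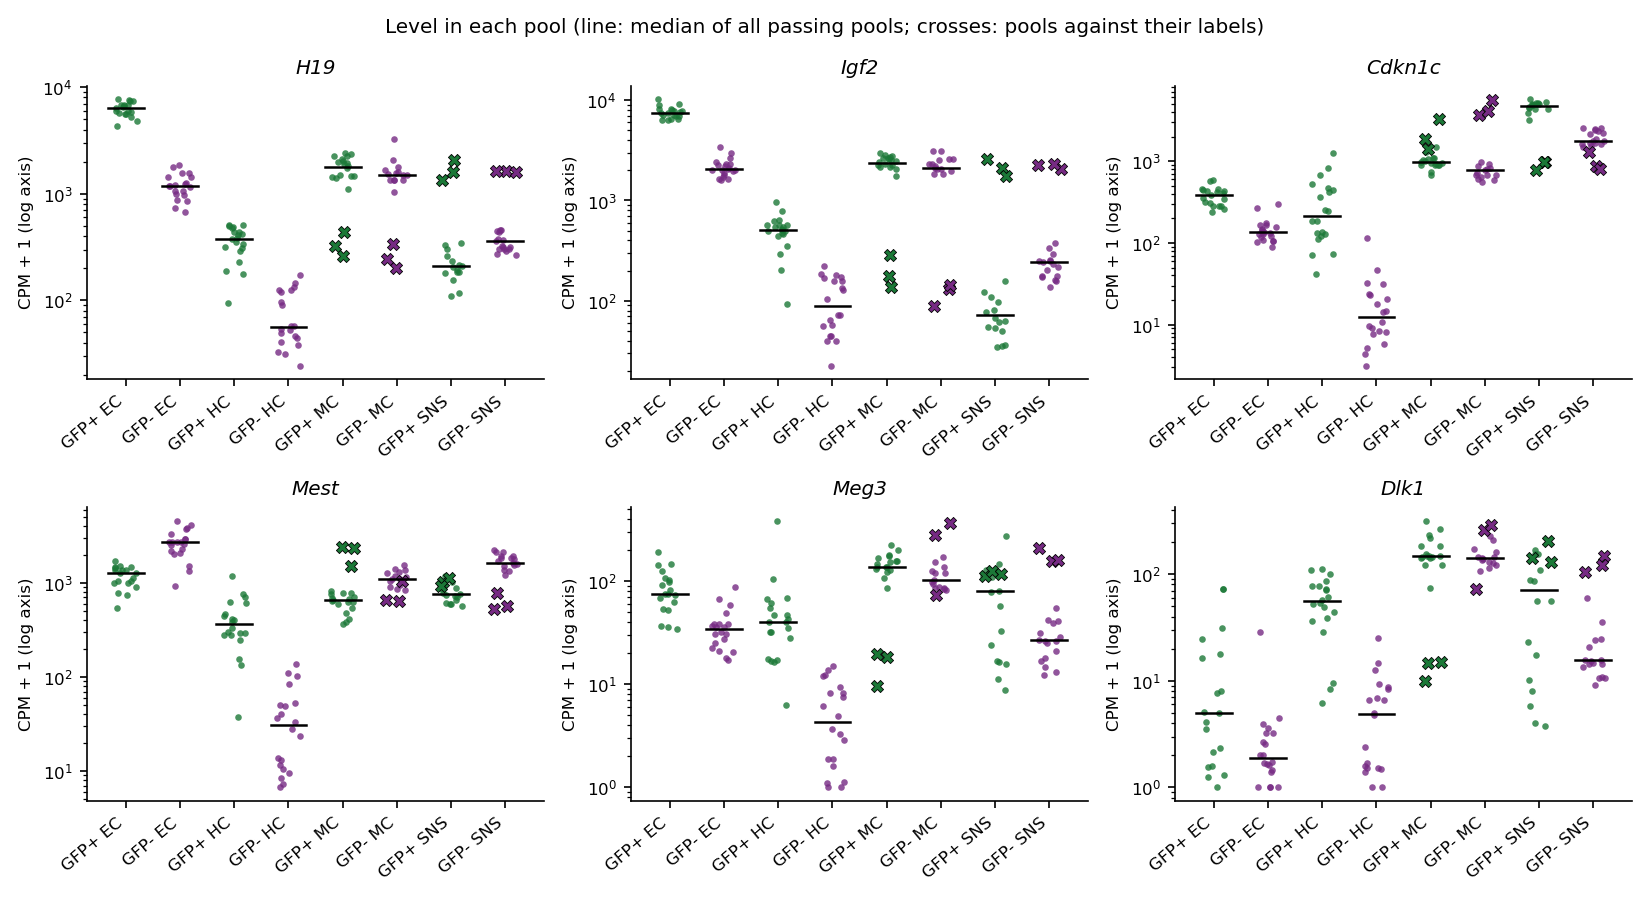
Level (CPM + 1, log axis) of H19, Igf2, Cdkn1c, Mest, Meg3 and Dlk1 in each passing pool of the 8 populations; lines are medians of all passing pools and crosses are the 12 pools against their labels. The EC fractions do not overlap for H19 and Igf2, and the crosses of MC lie with the SNS pools and the reverse for Igf2.

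Igf2r (chr17:12682406-12769664, maternally expressed) codes for the receptor that binds IGF2 and carries it to the lysosome, and Airn (chr17:12741311-12860136, paternally expressed) is the RNA transcribed across it from the opposite strand that silences the paternal copy of Igf2r. In EC, Igf2r was at 212 to 432 CPM (median 266) with GFP and 79.5 to 230.4 (median 148.1) without, and in HC at 12.1 to 116.8 (median 48.3) and 0.595 to 28.7 (median 8.62). Igf2r differed by 0.87 (SE 0.10, adjusted p 8.94e-10) in EC (not passing under ERCC) and 2.62 (SE 0.32, adjusted p 2.93e-08) in HC, and 16 of 19 and 15 of 20 GFP+ pools lay above all GFP- pools. Igf2r in MC was at 250.1 to 458 CPM (median 356) with GFP and 113.2 to 260.2 (median 194) without, and in SNS at 28.2 to 75.4 (median 61.3) and 55.1 to 115.9 (median 70.8). Igf2r in MC differed by 0.90 (SE 0.10, adjusted p 7.51e-08) in matching and 0.93 (SE 0.24, adjusted p 0.00805) in all passing pools, with 16 of 17 matching GFP+ pools above all GFP- pools. SNS pools gave -0.34 (adjusted p 0.0353), with overlapping fractions.

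In EC, Airn was at 30.8 to 79.6 CPM (median 52.8) with GFP and 12.4 to 43.9 (median 27) without, and in HC at 1.41 to 60.7 (median 14.2) and 0 to 10.3 (median 0.746). Airn differed by 0.96 (SE 0.13, adjusted p 2.60e-08) in EC (not passing under ERCC) and 2.97 (SE 0.58, adjusted p 7.20e-05) in HC, and 16 of 19 and 13 of 20 GFP+ pools lay above all GFP- pools. Airn in MC was at 57.9 to 127.9 CPM (median 90.6) with GFP and 28.6 to 74.5 (median 52.4) without, and in SNS at 0.889 to 14.1 (median 6.28) and 1.19 to 17.8 (median 10.9). Airn in MC differed by 0.85 (SE 0.13, adjusted p 5.17e-06) in matching and 0.86 (SE 0.31, adjusted p 0.0708) in all passing pools, so the call rests on which pools are used, and 15 of 17 matching GFP+ pools lay above all GFP- pools. In SNS it was at -0.65 (adjusted p 0.116). Where RNAs of both strands cross, the strand setting of the count is not stated, so the Airn and Igf2r values are uncertain to that extent.

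Grb10 (chr11:11930508-12038683, maternally expressed in most tissues) codes for an adaptor that dampens signalling from insulin and IGF1 receptors. In EC, Grb10 was at 223 to 465 CPM (median 344) with GFP and 225 to 467 (median 341) without, and in HC at 27.5 to 442 (median 226) and 1.71 to 79.1 (median 26.5). Grb10 differed by 2.81 (SE 0.34, adjusted p 1.58e-08) in HC, with 19 of 20 GFP+ pools above all GFP- pools, and by 0.00 (adjusted p 0.971) in EC, where the fractions covered nearly the same range. Grb10 in MC was at 738 to 1078 CPM (median 844) with GFP and 517 to 1007 (median 641) without, and in SNS at 555 to 1025 (median 816) and 719 to 1099 (median 906). Grb10 in MC differed by 0.38 (SE 0.07, adjusted p 9.69e-05) in matching and 0.40 (SE 0.07, adjusted p 1.56e-04) in all passing pools, a small shift in which 13 of 14 matching GFP- pools lay below all GFP+ pools. In SNS it was at -0.22 (adjusted p 0.0245).

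Plagl1 (chr10:13060504-13131694, paternally expressed) codes for a zinc finger transcription factor that stops the cell cycle and acts on other imprinted genes. Its promoter window, from RefSeq on GRCm38.p6 at chr10:13090582-13090881 on the plus strand, is shown because Plagl1 moved in different directions between cell types. Capitals mark the letters TGCCGC, or GCGGCA on the other strand, which the ZFP57 protein binds when methylated.
Plagl1 promoter: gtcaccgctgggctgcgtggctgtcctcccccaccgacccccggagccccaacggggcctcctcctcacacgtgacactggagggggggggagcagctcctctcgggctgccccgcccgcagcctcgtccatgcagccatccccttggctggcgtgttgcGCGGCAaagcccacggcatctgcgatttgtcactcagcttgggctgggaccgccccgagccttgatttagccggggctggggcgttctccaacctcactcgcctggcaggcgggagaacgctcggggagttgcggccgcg
In EC, Plagl1 was at 544 to 1639 CPM (median 820.4) with GFP and 355 to 981 (median 524) without, and in HC at 8.37 to 105.5 (median 28) and 1.19 to 46.2 (median 6.08). Plagl1 differed by 0.53 (SE 0.13, adjusted p 7.63e-04) in EC, which turned to -0.02 and did not pass under the ERCC scale, and by 1.38 (SE 0.40, adjusted p 0.00586) in HC, also not passing under ERCC. Of the GFP+ pools 5 of 19 and 3 of 20 lay above all GFP- pools. Plagl1 in MC was at 51.5 to 212 CPM (median 147.4) with GFP and 164 to 583 (median 280.4) without, and in SNS at 2.84 to 33.1 (median 12.4) and 15.9 to 85.4 (median 35.9). Plagl1 in MC differed by -1.21 (SE 0.19, adjusted p 1.23e-05) in matching and -1.09 (SE 0.34, adjusted p 0.0375) in all passing pools, and 13 of 17 matching GFP+ pools lay below all GFP- pools. In SNS it differed by -1.51 (SE 0.28, adjusted p 1.81e-04) in matching and 0.43 (SE 0.55, adjusted p 0.716) in all passing pools, so the 6 pools against their labels change the sign, and 9 of 15 matching GFP+ pools lay below all GFP- pools.

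The RefSeq table of promoters (GRCm38.p6; 300 bases, 250 before and 50 after each start) gave 44 windows of 28 of the 35 members, among 32851 windows. Impact, on chromosome 18, was left out of this search and of the search for miRNAs, while the 32851 windows were not filtered by chromosome. TGCCGC on either strand was in 10 of the 44 windows, of the 9 members Grb10, Igf2, Meg3, Mest, Nap1l5, Nnat, Plagl1, Snrpn and Zim1, and in 11.6% of all windows. The letters AGATAA, or TTATCT on the other strand, which GATA factors bind, were in 2 of the 44, of Rian and Slc38a4, and in 11.2% of all windows. A match describes the letters of a window and is not a measured binding site, and no match says only that the letters are absent from that window.

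Cdkn1c (chr7:143458339-143461050, maternally expressed) codes for the cyclin-dependent kinase inhibitor p57Kip2, which holds cells in G1 and is the member the study names. In EC, Cdkn1c was at 236 to 593 CPM (median 385) with GFP and 87.3 to 302 (median 134.6) without, and in HC at 40.2 to 1265 (median 215) and 2.13 to 112.4 (median 11.6). Cdkn1c differed by 1.35 (SE 0.13, adjusted p 1.20e-11) in EC and 4.11 (SE 0.46, adjusted p 4.82e-09) in HC, with 14 of 19 and 16 of 20 GFP+ pools above all GFP- pools. Cdkn1c in MC was at 676 to 1489 CPM (median 944) with GFP and 559.6 to 981 (median 695) without, and in SNS at 3149 to 5697 (median 4833) and 1497 to 2568 (median 1806). Cdkn1c in MC differed by 0.42 (SE 0.09, adjusted p 8.52e-04) in matching and -0.25 (SE 0.29, adjusted p 0.665) in all passing pools, so the 6 pools against their labels change the sign, and in SNS by 1.25 (SE 0.08, adjusted p 1.19e-12) in matching and 1.17 (SE 0.20, adjusted p 1.82e-04) in all passing pools. The matching SNS fractions did not overlap, and in MC 7 of 17 GFP+ pools lay above all GFP- pools. Of the Cdkn1c exons, 30.7% overlap a gene on the opposite strand that the table does not list, so its counts are uncertain to that extent.

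Kcnq1ot1 (chr7:143203458-143296549, paternally expressed) is the antisense RNA that silences the paternal copies of its neighbours, Cdkn1c among them. Kcnq1ot1 medians lay between 167 CPM in GFP- EC and 325 CPM in GFP+ EC pools over the 8 populations, with 169 CPM in GFP- HC. It differed by 0.93 (SE 0.13, adjusted p 6.49e-08) in EC, not passing under ERCC, with 10 of 19 GFP+ pools above all GFP- pools, and by -0.01 (adjusted p 0.975) in HC. At E11.5 it did not pass, with -0.13 in MC and 0.31 in SNS. Phlda2 (maternally expressed), which codes for a small lipid-binding protein that limits placental growth, was at a median of 0 in EC, HC and matching MC pools and reached at most 2.79 CPM as a median, in GFP+ SNS. Ascl2 (maternally expressed), a transcription factor of the trophoblast, had its highest median in GFP- HC, at 2.14 CPM, and did not pass there with -0.65 (adjusted p 0.45).

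Dlk1, Meg3, Rtl1, Rian and Mirg lie in that order along chromosome 12, within chr12:109452823-109463336 for Dlk1 and chr12:109729764-109749460 for Mirg. Dlk1 and Rtl1 code for proteins from the paternal copy, and Meg3, Rian and Mirg are long RNAs from the maternal copy. The Meg3 promoter window (RefSeq, chr12:109540746-109541045, plus strand, with TGCCGC on either strand in capitals) is shown since all 5 passed as higher in HC, Rtl1 and Mirg on few counts.
Meg3 promoter: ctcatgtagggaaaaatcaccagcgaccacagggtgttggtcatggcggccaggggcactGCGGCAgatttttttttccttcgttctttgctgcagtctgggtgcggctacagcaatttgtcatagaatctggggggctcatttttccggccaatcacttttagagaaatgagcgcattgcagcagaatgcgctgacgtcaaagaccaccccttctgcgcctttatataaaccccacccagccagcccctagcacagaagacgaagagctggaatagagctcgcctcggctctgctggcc
RefSeq places 3 mature miRNAs within Meg3, 6 within Rian, 26 within Mirg, and 11 opposite to Rtl1 with 2 more on its strand. The first 5 printed are read from the strand opposite to Rtl1, where maternal miRNAs pair with its RNA, and the last 2, both within Mirg, share their seed, the only seed shared among the 56 mature miRNAs of 8 members. Capitals mark bases 2 to 8.
miR-127-3p: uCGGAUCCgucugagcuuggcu
miR-136-5p: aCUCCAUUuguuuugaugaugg
miR-431-5p: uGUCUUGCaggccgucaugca
miR-433-3p: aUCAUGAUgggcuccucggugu
miR-434-3p: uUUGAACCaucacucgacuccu
miR-453: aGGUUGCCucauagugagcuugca
miR-496a-5p: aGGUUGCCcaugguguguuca
In EC, Meg3 was at 33.6 to 192 CPM (median 74.8) with GFP and 16.1 to 87.4 (median 33.1) without, and in HC at 5.29 to 386 (median 39.4) and 0 to 14 (median 3.32). Meg3 differed by 1.24 (SE 0.21, adjusted p 4.06e-06) in EC and 3.60 (SE 0.51, adjusted p 4.73e-07) in HC, with 8 of 19 and 19 of 20 GFP+ pools above all GFP- pools. Meg3 in MC was at 84.5 to 224 CPM (median 146.04) with GFP and 80.7 to 172 (median 100.5) without, and in SNS at 7.91 to 271 (median 56.9) and 11.4 to 54.2 (median 25.4). Meg3 in MC differed by 0.43 (SE 0.12, adjusted p 0.00883) in matching and -0.05 (SE 0.27, adjusted p 0.941) in all passing pools (not passing under ERCC in either set), so the 6 pools against their labels change the sign, and in SNS by 1.46 (SE 0.39, adjusted p 0.00685) in matching and 0.69 (SE 0.43, adjusted p 0.384) in all passing pools. In SNS 8 of 15 matching GFP+ pools lay above all GFP- pools and 2 lay below them all.

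Dlk1 codes for a membrane protein of the Notch ligand family that restrains differentiation. In EC, Dlk1 was at 0 to 71.9 CPM (median 4.03) with GFP and 0 to 27.5 (median 0.879) without, and in HC at 5.12 to 110.7 (median 54.7) and 0 to 24 (median 3.86). Dlk1 differed by 2.40 (SE 0.70, adjusted p 0.00422) in EC and 3.52 (SE 0.47, adjusted p 1.60e-07) in HC. In EC 3 of 19 GFP+ pools lay above all GFP- pools, and without the pool of each fraction farthest in mesenchymal markers the EC value fell to 1.98 with an adjusted p of 0.019, so its call rests on those pools. It did not pass under ERCC either. In HC 17 of 20 lay above. Dlk1 in MC was at 72.3 to 315 CPM (median 146.6) with GFP and 105.8 to 224 (median 139.2) without, and in SNS at 2.77 to 166 (median 55.1) and 8.17 to 59.2 (median 14). Dlk1 differed by 1.75 (SE 0.47, adjusted p 0.00779) in matching and 1.16 (SE 0.51, adjusted p 0.166) in all passing pools in SNS, where 6 of 15 matching GFP+ pools lay above and 4 below all GFP- pools, and by 0.19 (adjusted p 0.414) in MC.

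Rian carries small nucleolar RNAs, and Mirg most miRNAs of the domain. In EC, Rian was at 6.21 to 90.5 CPM (median 33.9) with GFP and 10.7 to 60.9 (median 27.4) without, and in HC at 3.7 to 90.5 (median 26.1) and 0 to 15.7 (median 0.868). Rian differed by 3.52 (SE 0.51, adjusted p 6.15e-07) in HC, with 17 of 20 GFP+ pools above all GFP- pools, and by 0.27 (adjusted p 0.364) in EC, with wide overlap. Rian in MC was at 33.9 to 99.2 CPM (median 66.7) with GFP and 24 to 164 (median 90.5) without, and in SNS at 3.16 to 113.8 (median 34.1) and 7.24 to 46.6 (median 19.7). Neither E11.5 comparison passed for Rian, at -0.34 (adjusted p 0.232) in MC and 0.85 (adjusted p 0.0937) in SNS. In EC, Mirg was at 0 to 9.14 CPM (median 2.6) with GFP and 0 to 5.24 (median 1.07) without, and in HC at 0 to 14.8 (median 2.76) and 0 to 2.58 (median 0). Mirg differed by 3.29 (SE 0.66, adjusted p 9.10e-05) in HC, where 14 of 20 GFP- pools held no count and 11 of 20 GFP+ pools lay above them all, and by 0.93 (adjusted p 0.166) in EC. Mirg in MC was at 1.81 to 21.7 CPM (median 8.47) with GFP and 2.51 to 26.3 (median 13.1) without, and in SNS at 0 to 23.5 (median 3.94) and 0 to 12 (median 1.98). Mirg did not pass at E11.5 and its fractions overlapped, at -0.62 in MC and 1.01 in SNS.

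Rtl1 codes for a protein derived from a retrotransposon and 8.12% of its exons overlap the miRNA genes on the other strand. In EC, Rtl1 was at 0 to 7.53 CPM (median 0.233) with GFP and 0 to 4.6 (median 0.847) without, and in HC at 0 to 8.17 (median 1.85) and 0 to 0.283 (median 0). Rtl1 differed by 5.61 (SE 0.65, adjusted p 8.18e-09) in HC and by 0.16 (adjusted p 0.867) in EC. In HC 18 of 20 GFP- pools held no count and none held more than 1, and 16 of 20 GFP+ pools lay above them all. Rtl1 therefore met the filter through GFP+ HC pools alone, and its HC call and the size of the change rest on few counts. Rtl1 in MC was at 2.05 to 26.5 CPM (median 8.93) with GFP and 4.1 to 24.8 (median 9.53) without, and in SNS at 0.333 to 25.3 (median 6.14) and 0 to 10.9 (median 2.34). Rtl1 did not pass at E11.5, at -0.43 (adjusted p 0.399) in MC and 1.44 (adjusted p 0.0522) in SNS, and in both cell types the fractions overlapped.

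Peg3 and Usp29 start side by side on chromosome 7 and are paternally expressed, and Zim1, next to them, is maternally expressed. Peg3 (chr7:6703892-6730431) codes for a zinc finger protein known to mark several kinds of tissue stem cell. In EC, Peg3 was at 299 to 847 CPM (median 468) with GFP and 138.8 to 537 (median 264) without, and in HC at 36 to 1321 (median 481) and 3.22 to 179.7 (median 25.6). Peg3 differed by 0.59 (SE 0.14, adjusted p 5.04e-04) in EC (not passing under ERCC) and 3.52 (SE 0.42, adjusted p 2.13e-08) in HC, with 5 of 19 and 19 of 20 GFP+ pools above all GFP- pools. Peg3 in MC was at 1885 to 3363 CPM (median 2781) with GFP and 1289 to 2119 (median 1658) without, and in SNS at 260.1 to 515 (median 384) and 393 to 860.0 (median 606). Peg3 in MC differed by 0.68 (SE 0.07, adjusted p 3.03e-08) in matching and 0.71 (SE 0.24, adjusted p 0.0588) in all passing pools and in SNS by -0.68 (SE 0.09, adjusted p 1.54e-06) in matching and -0.65 (SE 0.29, adjusted p 0.179) in all passing pools, in opposite directions, though the matching SNS value did not pass under ERCC. In MC 15 of 17 matching GFP+ pools lay above all GFP- pools, and in SNS 8 of 15 lay below.

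Usp29 (chr7:6730578-6967219) codes for a ubiquitin-specific protease and Zim1 (chr7:6671269-6696450) for a zinc finger protein. In EC, Usp29 was at 0 to 16.7 CPM (median 2.32) with GFP and 0 to 8.91 (median 3.73) without, and in HC at 0 to 34.6 (median 6.4) and 0 to 1.63 (median 0.141). Usp29 differed by 4.40 (SE 0.59, adjusted p 1.32e-07) in HC, with 18 of 20 GFP+ pools above all GFP- pools, and by -0.35 (adjusted p 0.581) in EC. Usp29 in MC was at 5.09 to 28.8 CPM (median 18.9) with GFP and 5.45 to 24.6 (median 13.8) without, and in SNS at 1.68 to 8.0 (median 3.5) and 0.475 to 14.3 (median 4.77). Its fractions overlapped at E11.5, with 0.38 in MC and -0.37 in SNS, neither of which passed. In EC, Zim1 was at 0 to 10.1 CPM (median 0) with GFP and 0 to 7.92 (median 0) without, and in HC at 0 to 22 (median 3.74) and 0 to 1.98 (median 0). Zim1 differed by 4.73 (SE 0.78, adjusted p 4.86e-06) in HC, with 12 of 20 GFP+ pools above all GFP- pools, of which 14 held no count, and by 0.96 (adjusted p 0.388) in EC. Zim1 in MC was at 21.7 to 57.2 CPM (median 38.3) with GFP and 4.92 to 39.6 (median 23.3) without, and in SNS at 0 to 2.56 (median 0.22) and 0 to 6.33 (median 2.56). Zim1 did not pass at E11.5, at 0.74 (adjusted p 0.0125) in MC and -1.94 (adjusted p 0.0599) in SNS, though 7 of 17 matching GFP+ MC pools lay above all GFP- ones.

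Mest (chr6:30723547-30748465, paternally expressed) codes for a hydrolase-like protein of the endoplasmic reticulum and is widely expressed in mesoderm. The miR-335 hairpin lies within it. Both mature forms, with the seed in capitals, and a promoter window of Mest (RefSeq, chr6:30737800-30738099, plus strand; TGCCGC on either strand in capitals) are shown because Mest was high in 1 fraction of each cell type, and not in the same fraction of all.
miR-335-5p: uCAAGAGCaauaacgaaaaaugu
miR-335-3p: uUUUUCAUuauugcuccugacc
Mest promoter: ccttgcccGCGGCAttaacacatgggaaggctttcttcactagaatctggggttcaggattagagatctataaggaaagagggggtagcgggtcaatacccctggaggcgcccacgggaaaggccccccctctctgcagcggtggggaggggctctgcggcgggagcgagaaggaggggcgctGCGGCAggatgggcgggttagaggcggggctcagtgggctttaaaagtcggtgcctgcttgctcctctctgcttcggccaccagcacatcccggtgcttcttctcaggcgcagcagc
In EC, Mest was at 541 to 1693 CPM (median 1283) with GFP and 929 to 4574 (median 2700.4) without, and in HC at 36.5 to 1184 (median 361) and 5.69 to 134.7 (median 29.5). Mest differed by -1.22 (SE 0.15, adjusted p 2.83e-09) in EC and 3.39 (SE 0.39, adjusted p 1.09e-08) in HC. In EC 17 of 20 GFP- pools lay above all GFP+ pools, and in HC 18 of 20 GFP+ pools lay above all GFP- pools. Mest in MC was at 363 to 822 CPM (median 645) with GFP and 837 to 1546 (median 1127) without, and in SNS at 561 to 1192 (median 740.0) and 1208 to 2244 (median 1746). Mest in MC differed by -0.89 (SE 0.11, adjusted p 1.55e-07) in matching and -0.37 (SE 0.20, adjusted p 0.273) in all passing pools. In SNS it differed by -1.16 (SE 0.10, adjusted p 2.38e-10) in matching and -0.92 (SE 0.15, adjusted p 4.65e-05) in all passing pools, the last not passing under ERCC. In matching pools the fractions did not overlap in MC or in SNS, the GFP- pools being higher in both. Of the Mest exons, 23.1% overlap Copg2 on the opposite strand.

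Sgce, Peg10 and Asb4 lie together on chromosome 6. Peg10 (chr6:4747306-4760517, paternally expressed) codes for a protein derived from a retrotransposon that the placenta needs. In EC, Peg10 was at 18 to 81.2 CPM (median 45.2) with GFP and 35.5 to 133.8 (median 83.7) without, and in HC at 8.09 to 61.3 (median 22.2) and 0.197 to 7.49 (median 2.33). Peg10 differed by -1.02 (SE 0.17, adjusted p 3.60e-06) in EC and 3.17 (SE 0.38, adjusted p 1.64e-08) in HC. All 20 GFP+ HC pools lay above all 20 GFP- HC pools, and in EC 11 of 20 GFP- pools lay above all GFP+ pools. Peg10 in MC was at 80.6 to 200.2 CPM (median 104.005) with GFP and 13.3 to 68.6 (median 35.8) without, and in SNS at 53.3 to 118.3 (median 88.2) and 41.3 to 101.7 (median 80.5). Peg10 in MC differed by 1.64 (SE 0.16, adjusted p 1.83e-09) in matching and 1.26 (SE 0.19, adjusted p 2.14e-05) in all passing pools, the last not passing under ERCC. The matching MC fractions did not overlap. In SNS it was at 0.16 (adjusted p 0.365), with overlap.

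Asb4 (chr6:5383386-5433022, maternally expressed) codes for a subunit of a ubiquitin ligase found in vessels of the embryo. In EC, Asb4 was at 49.5 to 186 CPM (median 105.6) with GFP and 160.5 to 356 (median 255) without, and in HC at 6.34 to 248 (median 76.6) and 0 to 37.6 (median 4.89). Asb4 differed by -1.25 (SE 0.14, adjusted p 2.67e-10) in EC and 3.47 (SE 0.43, adjusted p 3.21e-08) in HC. In EC 17 of 20 GFP- pools lay above all GFP+ pools, and in HC 17 of 20 GFP+ pools lay above all GFP- pools. Asb4 in MC was at 697 to 1498 CPM (median 1003) with GFP and 240.0 to 504 (median 326) without, and in SNS at 86.4 to 354 (median 194) and 18.7 to 169.6 (median 61.5). Asb4 in MC differed by 1.59 (SE 0.11, adjusted p 4.42e-12) in matching and 1.42 (SE 0.26, adjusted p 3.17e-04) in all passing pools and in SNS by 1.61 (SE 0.23, adjusted p 4.38e-06) in matching and 0.35 (SE 0.44, adjusted p 0.706) in all passing pools. The matching MC fractions did not overlap, and in SNS 10 of 15 GFP+ pools lay above all GFP- pools.

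Sgce (chr6:4674350-4747207, paternally expressed) codes for a sarcoglycan of the cell membrane. In EC, Sgce was at 49 to 187 CPM (median 105.6) with GFP and 22.6 to 142.4 (median 66.5) without, and in HC at 14.8 to 57.8 (median 36.7) and 0.262 to 28.2 (median 7.94). Sgce differed by 0.65 (SE 0.17, adjusted p 0.00146) in EC, which turned to -0.15 and did not pass under the ERCC scale, and by 2.02 (SE 0.35, adjusted p 1.46e-05) in HC. Overlap was wide in EC, with 3 of 19 GFP+ pools above all GFP- pools, and less so in HC, with 13 of 20. Sgce in MC was at 87.8 to 208 CPM (median 135.9) with GFP and 53.1 to 118.7 (median 96.8) without, and in SNS at 52.8 to 96.8 (median 70.4) and 50 to 105.8 (median 74.3). Sgce in MC differed by 0.53 (SE 0.12, adjusted p 0.00115) in matching and 0.55 (SE 0.12, adjusted p 0.00205) in all passing pools, with 10 of 17 matching GFP+ pools above all GFP- pools, and in SNS by -0.08 (adjusted p 0.616).

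Ndn, Magel2, Mkrn3 and Peg12 are neighbours on chromosome 7, and Snrpn lies before them on the same chromosome, all paternally expressed. Ndn (chr7:62346569-62350262) codes for a protein of the MAGE family. In EC, Ndn was at 87.2 to 210.2 CPM (median 141.8) with GFP and 79.1 to 184 (median 115.6) without, and in HC at 14.3 to 298 (median 80.5) and 0.901 to 21.2 (median 12.1). Ndn differed by 3.06 (SE 0.34, adjusted p 3.48e-09) in HC, with 19 of 20 GFP+ pools above all GFP- pools, and by 0.13 (adjusted p 0.35) in EC. Ndn in MC was at 214 to 405 CPM (median 279) with GFP and 188 to 296 (median 253) without, and in SNS at 224 to 380.0 (median 293) and 190.4 to 343 (median 259.8). Ndn overlapped widely at E11.5, with 0.18 in MC and 0.21 in SNS, neither of which passed. Magel2 (chr7:62377010-62381640), also of the MAGE family, acts with ubiquitin ligases. In EC, Magel2 was at 0 to 27.6 CPM (median 0.888) with GFP and 0 to 8.87 (median 0.168) without, and in HC at 0 to 17.9 (median 0.496) and 0 to 0 (median 0). Magel2 held counts in 13 of 20 GFP+ HC pools and was listed at 0 in all 20 GFP- HC pools, so it was at least 54.8-fold higher (floor of 3 counts over the group), and the edgeR test gave an adjusted p of 5.40e-05. Its fitted log2 fold change of 6.09 (SE 1.03) is no bound. In EC it was at 1.79 (adjusted p 0.0622), which did not pass. Magel2 in MC was at 0 to 13.2 CPM (median 3.21) with GFP and 0 to 4.86 (median 0.234) without, and in SNS at 0 to 16.8 (median 5.98) and 0 to 9.22 (median 3.86). Magel2 did not pass at E11.5, with 1.24 in MC and 0.73 in SNS and overlapping fractions.

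Snrpn (chr7:59982495-60140219) codes for a protein of the splicing machinery, and 34.1% of its exons overlap other genes. In EC, Snrpn was at 3.5 to 37.1 CPM (median 16.2) with GFP and 4.06 to 37.5 (median 18.9) without, and in HC at 6.03 to 78.9 (median 19.4) and 1.49 to 11.7 (median 6.43). Snrpn differed by 1.77 (SE 0.28, adjusted p 2.02e-06) in HC, with 15 of 20 GFP+ pools above all GFP- pools, and by 0.00 (adjusted p 0.99) in EC. Snrpn in MC was at 26.6 to 70.7 CPM (median 45.3) with GFP and 23 to 54.4 (median 38.1) without, and in SNS at 34.3 to 92 (median 49.1) and 11.7 to 56.7 (median 32.9). Snrpn in SNS differed by 0.79 (SE 0.17, adjusted p 9.80e-04) in matching and 0.63 (SE 0.16, adjusted p 0.011) in all passing pools, with 6 of 15 matching GFP+ pools above all GFP- pools, and in MC by 0.31 (adjusted p 0.127). Peg12 (chr7:62461871-62464510) belongs to a family that binds the kinase GSK3. In EC, Peg12 was at 14.9 to 48.7 CPM (median 31.5) with GFP and 18.7 to 76.1 (median 38.1) without, and in HC at 2.29 to 33.4 (median 17.3) and 0 to 11.8 (median 2.16). Peg12 differed by -0.47 (SE 0.15, adjusted p 0.0078) in EC (not passing with DESeq2 size factors) and 2.46 (SE 0.45, adjusted p 2.66e-05) in HC, with 6 of 20 GFP- EC pools above all GFP+ ones and 12 of 20 GFP+ HC pools above all GFP- ones. Peg12 in MC was at 17.4 to 62.1 CPM (median 43.1) with GFP and 23.5 to 52.1 (median 47.2) without, and in SNS at 53.7 to 171 (median 119.6) and 72.2 to 189.6 (median 117.5). Peg12 covered similar ranges in both fractions at E11.5, at 0.05 in MC and -0.04 in SNS. Mkrn3, a ubiquitin ligase known for its part in puberty, did not pass in any of the 4 cell types in either set of pools, and its medians lay between 0.167 CPM in GFP+ HC and 7.73 CPM in GFP+ SNS pools.

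Gnas (chr2:174284320-174346744) gives the alpha subunit of the stimulatory G protein, from the maternal copy in some tissues, and other transcripts of the same locus come from the paternal copy, which gene counts do not separate. Of its exons 22% overlap genes on the opposite strand. In EC, Gnas was at 8.6 to 22 CPM (median 15) with GFP and 22.9 to 90.7 (median 47.6) without, and in HC at 8.01 to 54.4 (median 19.2) and 3.47 to 11.9 (median 7.28). Gnas differed by -1.68 (SE 0.15, adjusted p 3.01e-12) in EC and 1.63 (SE 0.19, adjusted p 7.08e-09) in HC. All 19 GFP+ EC pools lay below all 20 GFP- EC pools, and 18 of 20 GFP+ HC pools lay above all GFP- HC pools. Gnas in MC was at 32.6 to 59.3 CPM (median 43.6) with GFP and 14.6 to 42.9 (median 28.6) without, and in SNS at 20.6 to 68.4 (median 42) and 7.34 to 28.5 (median 15.4). Gnas in MC differed by 0.68 (SE 0.13, adjusted p 2.87e-04) in matching and 0.17 (SE 0.20, adjusted p 0.68) in all passing pools and in SNS by 1.29 (SE 0.19, adjusted p 4.73e-06) in matching and 0.96 (SE 0.20, adjusted p 0.0019) in all passing pools, with 9 of 17 and 11 of 15 matching GFP+ pools above all GFP- pools. In all passing MC pools it turned to -0.04 under the ERCC scale.

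Nnat (chr2:157560078-157562522, paternally expressed) codes for a small membrane protein of the endoplasmic reticulum known from developing neurons. In EC, Nnat was at 28.2 to 223 CPM (median 91.7) with GFP and 16.4 to 188 (median 84.9) without, and in HC at 47.6 to 357 (median 151.9) and 0.601 to 205 (median 9.73). Nnat differed by 2.77 (SE 0.49, adjusted p 2.00e-05) in HC, with 18 of 20 GFP- pools below all GFP+ pools, and by 0.28 (adjusted p 0.362) in EC. Nnat in MC was at 199 to 419.5 CPM (median 342) with GFP and 313 to 524 (median 379.7) without, and in SNS at 418 to 988 (median 607) and 323 to 581 (median 432). Nnat in SNS differed by 0.52 (SE 0.11, adjusted p 5.23e-04) in matching and 0.49 (SE 0.10, adjusted p 0.00138) in all passing pools, with 8 of 15 matching GFP+ pools above all GFP- pools, and in MC by -0.28 (adjusted p 0.0237).

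Slc38a4 (chr15:96994820-97055956, paternally expressed) codes for an amino acid transporter. In EC, Slc38a4 was at 8.88 to 160.2 CPM (median 64) with GFP and 39.4 to 132.5 (median 93.2) without, and in HC at 5.18 to 159.98 (median 32.6) and 0.525 to 15 (median 4.62). Slc38a4 differed by 2.83 (SE 0.44, adjusted p 2.21e-06) in HC, with 14 of 20 GFP+ pools above all GFP- pools, and by -0.54 (adjusted p 0.0223) in EC. Slc38a4 in MC was at 140.1 to 254 CPM (median 200.3) with GFP and 185 to 323 (median 232) without, and in SNS at 31.9 to 130.7 (median 61.3) and 30.2 to 107.8 (median 67.7). Neither E11.5 comparison passed for Slc38a4, at -0.30 (adjusted p 0.0109) in MC and 0.11 (adjusted p 0.715) in SNS. Dcn (chr10:97479609-97518143, maternally expressed in placenta) codes for decorin, a proteoglycan of the extracellular matrix. In EC, Dcn was at 0 to 120.8 CPM (median 0.18) with GFP and 0 to 0.658 (median 0.284) without, and in HC at 0 to 82.2 (median 10.9) and 0 to 17.4 (median 0.187). Dcn differed by 2.75 (SE 0.78, adjusted p 0.00455) in HC (not passing under ERCC), with 6 of 20 GFP+ pools above all GFP- pools, and had too few counts in EC to be tested. Dcn in MC was at 15.9 to 367 CPM (median 69.8) with GFP and 23 to 207 (median 86.6) without, and in SNS at 0 to 2.99 (median 0.216) and 0 to 24.2 (median 1.27). Dcn did not pass at E11.5, at 0.05 (adjusted p 0.953) in MC and -2.88 (adjusted p 0.0112) in SNS.

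The 4 members left are paternally expressed. Impact, which restrains the amino acid sensor GCN2, had medians between 35.7 CPM in GFP- EC and 173 CPM in GFP- SNS pools. It differed by 0.58 (SE 0.18, adjusted p 0.00851) in EC, which turned to -0.15 and did not pass under the ERCC scale, with 5 of 19 GFP+ pools above all GFP- pools, and it did not pass in the other cell types. Inpp5f, a phosphoinositide phosphatase, had medians between 16.4 CPM in GFP- MC and 25.8 CPM in GFP+ SNS pools and passed in none of the 4 comparisons on the TMM scale. Nap1l5, of the nucleosome assembly protein family, was at a median of 0 in the 4 E10.5 populations and between 2.05 CPM in GFP+ MC and 8.58 CPM in GFP+ SNS pools at E11.5, where it was at -1.51 (adjusted p 0.117) in MC and 1.59 (adjusted p 0.0357) in SNS. Rasgrf1, an exchange factor for Ras, had a median of 0 in all 8 populations and was not tested.

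The 35 members lie on 10 chromosomes, 15 of them on chromosome 7. Neighbours less than 2000000 bases apart form 6 domains with 23 members, and 12 members stand alone. On chromosome 12 all 5 members of the Dlk1 and Meg3 domain passed as higher in HC, 2 in EC (Meg3, and Dlk1 not under ERCC) and, in matching pools, 2 in SNS (Meg3, Dlk1) and 1 in MC (Meg3, not under ERCC). The 3 members of the Sgce domain on chromosome 6 passed as higher in HC and in MC, Asb4 also in matching SNS, while in EC Sgce passed as higher (not under the ERCC scale) and Peg10 and Asb4 as lower. Igf2r and Airn passed as higher in EC (not under ERCC), HC and matching MC. In the domain of H19, Igf2, Ascl2, Kcnq1ot1, Cdkn1c and Phlda2, all 4 members tested in EC passed as higher (Kcnq1ot1 not under ERCC), 3 of 5 in HC and Cdkn1c in matching MC, and in matching SNS Cdkn1c passed as higher and H19 (not under ERCC) and Igf2 as lower. Zim1, Peg3 and Usp29 passed as higher in HC, and Peg3 as higher in EC (not under ERCC) and matching MC and as lower in matching SNS (not under ERCC). Of Ndn, Magel2, Mkrn3 and Peg12, 3 passed as higher in HC and Peg12 as lower in EC. The HC calls of Magel2, Mirg, Rtl1, Usp29 and Zim1 rest on GFP- pools with few or no counts.

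Whether the difference between the fractions differed between EC and HC was tested as an interaction, the EC difference minus the HC difference, in edgeR (quasi-likelihood, Benjamini-Hochberg). It passed for 22 of 33 members, where 22.7% of all genes tested passed. Of these, 21 were lower, that is with a smaller or opposite difference in EC, and 1, Kcnq1ot1, was higher, at 0.95 (SE 0.19, adjusted p 5.39e-05). Of all 17851 genes 2524 were lower and 1536 higher. Under ERCC 24 members passed (Igf2, Mirg and Phlda2 gained, Kcnq1ot1 lost), where 5241 genes were lower and 519 higher. The members had a median of -2.47 beside -0.11 for all genes tested (-2.85 beside -0.75 under ERCC), with 8 lower of 13 maternally expressed and 13 lower and 1 higher of 20 paternally expressed. Mest stood at -4.61 (SE 0.41, adjusted p 2.05e-15) and Gnas at -3.31 (SE 0.24, adjusted p 7.60e-20). Rtl1 was at -5.33 (SE 0.92, adjusted p 2.69e-06), a value that rests on GFP- HC pools with at most 1 count each. Asb4, Gnas, Mest, Peg10 and Peg12 fell in EC and rose in HC. Cdkn1c, at -2.76 (SE 0.44, adjusted p 4.38e-07), rose in both and more in HC. H19 at 0.09 (adjusted p 0.822) and Igf2 at -0.48 (adjusted p 0.144), which rose in both, did not pass.

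The same interaction at E11.5, the MC difference minus the SNS difference, passed for 9 of 33 members in all passing pools, where 9.66% of all genes passed, and for 13 of 33 in matching pools, where 10.4% did. In all passing pools 5 were higher and 4 lower, where 796 and 917 of 17733 genes were, with a median of -0.12 beside 0.01. Under ERCC the median there was -0.63 beside -0.37, and 443 genes were higher and 1423 lower. In matching pools 10 were higher and 3 lower, where 976 and 819 of 17309 genes were, with 0.21 beside 0.02. Under ERCC it was -0.09 beside -0.28, and 488 genes were higher and 1386 lower. Dcn stood at 2.96 (SE 0.79, adjusted p 0.00495), Igf2 at 1.70 (SE 0.21, adjusted p 4.79e-09), Peg3 at 1.35 (SE 0.12, adjusted p 3.16e-13) and Cdkn1c at -0.83 (SE 0.13, adjusted p 9.52e-07), all in the edgeR test. The values of Dcn and Zim1 rest on few counts in SNS, with medians of 0.216 and 0.22 CPM in matching GFP+ SNS pools. Airn, Dcn, H19, Igf2 and Zim1 passed in matching pools alone (Dcn and H19 not under ERCC), and Rtl1 in all passing pools alone, at -2.16.

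Between the cell types of E10.5, over the mean of both fractions, 4 of 33 members passed as higher in HC than in EC, where 26.6% of all genes did, and 23 as lower, where 24% did, with a median of -1.75 beside 0.04. Under ERCC 4 were higher and 20 lower (Kcnq1ot1, Snrpn and Usp29 no longer), where 7403 and 2509 of 17851 genes were, with -1.39 beside 0.43. The 4 were Ascl2 at 3.38, Dcn at 2.15, Dlk1 at 1.46 and Impact at 0.64. Ascl2 had few counts in every population, and Dcn too few in EC for the EC fractions to be tested, so both values are less certain. Plagl1 at -5.13, Igf2 at -4.16 and H19 at -4.09 fell the farthest of the 23.

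Between the cell types of E11.5, 5 of 33 members passed as higher in SNS than in MC in all passing pools, where 11.4% of all genes did, and 15 as lower, where 12% did. In matching pools 11 passed as higher, where 20.5% did, and 17 as lower, where 19.7% did. Under ERCC 11 members passed as higher in all passing pools, where 7623 of 17733 genes passed as higher and 922 as lower. In matching pools 15 members did under ERCC, where 10144 of 17309 genes passed as higher and 1408 as lower. The median was -0.47 beside 0.00 in all passing pools and -0.63 beside 0.01 in matching pools, and under ERCC -0.05 beside 0.48 and 0.07 beside 0.70, so the sign in matching pools turns with the scale. In matching pools Mkrn3 at 2.20, Phlda2 at 2.02 and Cdkn1c at 1.83 rose the most, and Dcn at -5.91, Zim1 at -4.37 and Igf2 at -4.21 fell the most. Sgce, lower in both sets of pools, turned to 0.02 and 0.07 under the ERCC scale and did not pass there, and Gnas, lower in matching pools, turned to 0.30.

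Members of a domain were set against each other across the pools of a population, on log2(CPM + 1), with Pearson's r, Spearman's rho and two-sided permutation tests of 100000 permutations, for which 1e-05 is the smallest p possible. Of 47 correlations over 8 pairs, 15 passed at a Benjamini-Hochberg adjusted p under 0.05, each positive (18 with ERCC size factors), and 11 of the 15 also by rho. Pairs of other genes were not computed, so the 15 of 47 have no background share beside them. Whether unrelated genes vary together in the same pools was not tested. E11.5 values use matching pools. Igf2 and H19 had r 0.927 (p 1e-05, adjusted p 0.000188) and rho 0.786 (p 9e-05) over 20 GFP+ HC pools, and r 0.789 without the 2 pools farthest from the median of Igf2. In GFP- HC pools their r was 0.842 (p 2e-05, adjusted p 0.000188) with rho 0.835 (p 2e-05) and 0.819 without those 2. In GFP- EC pools r was 0.733 (p 0.00024, adjusted p 0.00161) with rho 0.633 (p 0.00356) and 0.588 without 2 pools, and in GFP+ EC pools r was 0.293 (p 0.225), which did not pass, while with ERCC size factors it was 0.873 (adjusted p 0.000188; rho 0.718) and passed. For the same pair r was 0.814 (p 8e-05, adjusted p 0.000627; rho 0.868, p 1e-05; 0.852 without 2 pools) in GFP+ MC and 0.694 (p 0.00332, adjusted p 0.0156; rho 0.568, p 0.0236; 0.668 without 2 pools) in GFP- SNS. In GFP- MC r was 0.632 (p 0.0118, adjusted p 0.0395; rho 0.429, p 0.128) and 0.0987 without 2 pools, so that relation rests on 2 pools.

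Dlk1 and Meg3 had r 0.936 (p 1e-05, adjusted p 0.000188) and rho 0.914 (p 1e-05) over 15 GFP+ SNS pools, and 0.955 without 2 pools. In HC r was 0.671 (p 0.00097, adjusted p 0.0057; rho 0.773, p 0.00017; 0.653 without 2 pools) in GFP+ and 0.666 (p 0.002, adjusted p 0.0104; rho 0.585, p 0.00755; 0.616 without 2 pools) in GFP- pools. Meg3 and Rian had r 0.846 (p 2e-05, adjusted p 0.000188; rho 0.774, p 0.00016; 0.701 without 2 pools) in GFP+ HC, 0.878 (p 2e-05, adjusted p 0.000188; rho 0.861, p 8e-05; 0.923 without 2 pools) in GFP+ SNS and 0.662 (p 0.00545, adjusted p 0.0233; rho 0.644, p 0.00892; 0.669 without 2 pools) in GFP- SNS. Igf2r and Airn had r 0.674 (p 0.00856, adjusted p 0.0309; rho 0.763, p 0.00236; 0.727 without 2 pools) in GFP- MC and 0.536 (p 0.0147, adjusted p 0.0462; rho 0.411, p 0.0729; 0.327 without 2 pools) in GFP+ HC. Peg3 and Usp29 had r 0.646 (p 0.00665, adjusted p 0.026; rho 0.405, p 0.079; 0.254 without 2 pools) in GFP+ HC. The last 2 rest on a few pools. Their rho, and that of Igf2 and H19 in GFP- MC and GFP- SNS, did not pass after adjustment.

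**Figure D5:**
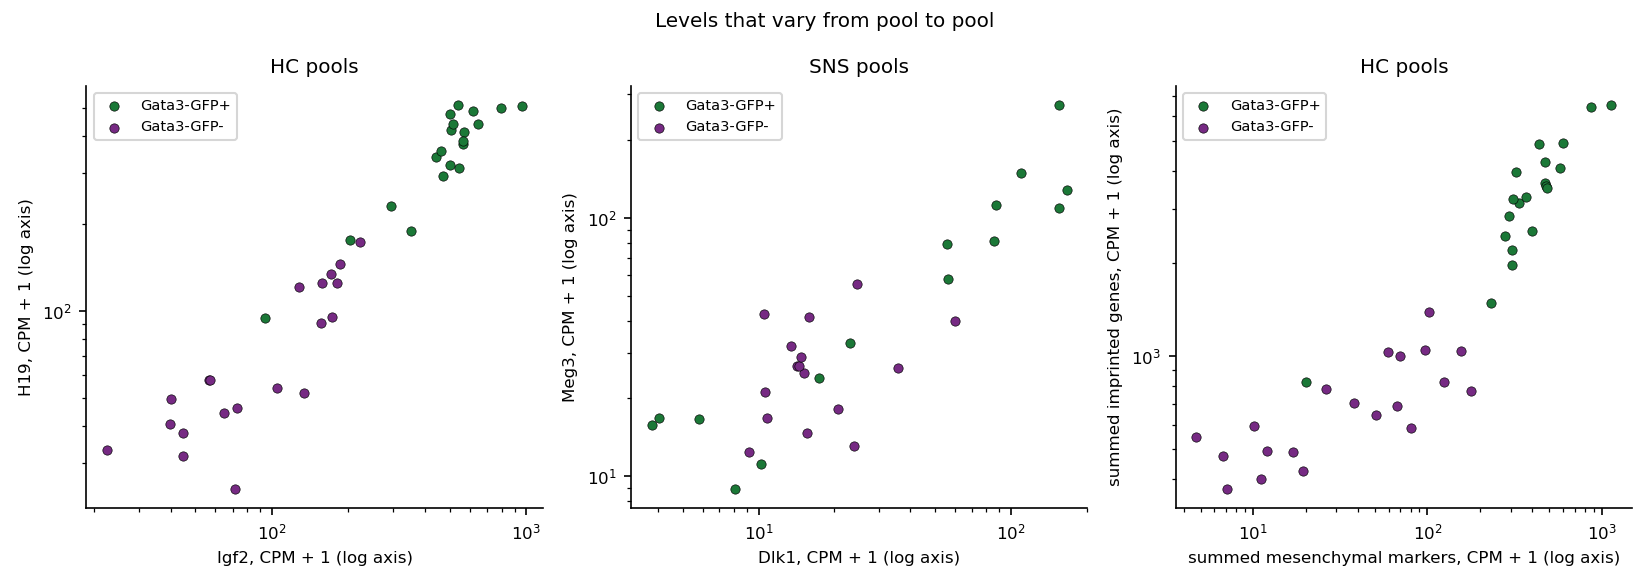
Each point is a pool (CPM + 1, log axes): H19 against Igf2 in HC pools, Meg3 against Dlk1 in matching SNS pools, and the summed members against the summed mesenchymal markers in HC pools. Green GFP+ HC pools lie mostly to the upper right of purple GFP- HC pools, and GFP+ SNS pools spread along the diagonal.

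Other genes give the setting. Of all genes, 19.5% passed as higher and 16.5% as lower in EC, 17.1% and 9.53% in HC, 2.21% and 2.15% in MC (5.52% and 4.89% in matching pools), and 2.01% and 1.86% in SNS (4.94% and 5.48%). Of 41 other imprinted genes 7 were higher and 5 lower of 32 tested in EC, 8 higher of 32 in HC, 4 higher and 1 lower of 33 in MC (5 and 2 of 32 in matching pools), and 1 higher of 28 in SNS (3 of 27). Their largest changes were Tnfrsf23 at 5.06 and Slc22a18 at 4.86 in EC, Ddc at 5.08 and Zdbf2 at 4.27 in HC, Pon3 at 1.504 and Ppp1r9a at 0.80 in MC (Pon3 at 1.72 and Cobl at 1.38 in matching pools), and Zdbf2 at 1.72 in SNS (Zdbf2 at 1.79 and Pon3 at 1.31). Of genes that keep imprints or methylate DNA, 8 were higher and 6 lower of 22 in EC, led by Tet2 at 1.46 and Uhrf1 at -1.30, and 3 higher and 8 lower of 23 in HC, led by Zfp57 at 2.40 and Tet1 at 2.14. In matching pools 2 were higher and 3 lower of 22 in MC, led by Uhrf1 at -0.86 and Tet3 at 0.58, and 1 higher, Uhrf1 at 0.54, and 1 lower, Trim28 at -0.20, of 22 in SNS. Of other genes of the IGF axis 9 were higher and 2 lower of 16 in EC, led by Lin28a at -3.60 and Igfbp5 at 2.02, and 7 higher and 3 lower of 17 in HC, led by Igfbp2 at 4.24 and Igfbp5 at 4.14. In SNS 2 were higher and 2 lower of 19 (3 and 3 in matching pools), led by Igfbp5 at -2.82 and Igfbp3 at 1.62 (-3.51 and 1.74), and in matching MC 1 was higher and 2 lower of 17, led by Igfbp7 at 2.02 and Hmga2 at -0.84. Of the other inhibitors of cyclin-dependent kinases 1 was higher and 1 lower of 5 in EC (Cdkn1b at 0.84, Cdkn3 at -1.25) and in HC (Cdkn2d at 2.24, Cdkn3 at -0.59), and 1 higher of 5 in SNS (Cdkn2d at 0.78, and 0.96 in matching pools).

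The ERCC scale moved the median of all genes by -0.70 in EC and -0.06 in HC, by -0.02 in MC and 0.35 in SNS over all passing pools, and by 0.14 and 0.45 over matching pools. Of differences that did not pass, those of Mkrn3, Ndn, Nnat, Rian and Rtl1 in EC turned negative under ERCC, and those of Grb10, Igf2r, Impact, Inpp5f, Peg12, Sgce and Usp29 in matching SNS turned positive. In EC 4 members higher on the TMM scale (H19, Igf2, Cdkn1c, Meg3) and 4 lower (Gnas, Asb4, Mest, Peg10) passed in the same direction under all 11 alternatives, and in HC 20 of 27 did. In all passing pools, over 10 alternatives, 1 of 5 higher members did in MC (Sgce), and 2 of 3 higher (Gnas, Cdkn1c) and 0 of 1 lower in SNS. In matching pools, over 4 alternatives, 9 of 10 higher and 2 of 2 lower members did in MC, and 7 of 7 higher and 3 of 5 lower (Plagl1, Igf2, Mest) in SNS. A member that an alternative left untested counts here as not passing. Of the HC members not kept, only Dcn and Plagl1 were tested and did not pass, both under ERCC, and the others were left out by a stricter filter.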

How the data were processed

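RNA was measured in pools of 20 cells, and the deposited table holds the read counts per gene that the authors made for 160 pools, with 92 ERCC spike-in RNAs and 5 HTSeq totals that name no gene. Per the submitters' processing notes, reads were aligned with GSNAP 2015-09-29 to mm10 and counted with HTSeq 0.5.3p3, while the study's methods name STAR and Ensembl 81, and the table does not settle which was used. The HTSeq totals that name no gene hold 50.38% of reads.

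Pools were grouped by their labels and kept with under 20% mitochondrial and under 20% ERCC counts, reads on genes over 20%, and over 500000 counts on genes plus ERCC RNAs. A gene was tested if 5 or more of the compared pools held 10 or more of its counts, in edgeR 4.0.16 (R 4.3.3; TMM, robust quasi-likelihood F test), with Benjamini-Hochberg adjustment over all genes tested and a threshold of 0.01. Symbols, positions and exon lengths came from GENCODE M21. Interactions and cell types were tested in a fit of the 4 populations of a stage. Correlations used log2(CPM + 1), and the bound for a group at 0 a floor of 3 counts. The methods were tested on simulated data. Python 3.11.15 was used with matplotlib 3.10.9, scipy 1.17.1, pandas 2.3.3 and numpy 2.4.6. Alternatives used DESeq2 1.42.0, scran 1.30.0 and scanpy 1.11.5, and other scales, filters, thresholds and sets of pools.

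All 35 members were named. A member was given in full where it passed in at least 1 of the 4 GFP comparisons with a log2 fold change of at least 1 in size and had at least 10 counts in at least 10 pools of a population, or was Cdkn1c; 27 were. In the other lists (other imprinted genes, imprint maintenance and methylation, IGF axis, cyclin-dependent kinase inhibitors) the 2 largest changes that passed were named. The members and lists, the marker lists included, were chosen with earlier results of these data known. Zim2 and Zim3 had no match in the table.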

Additional observations from a re-analysis of the deposited data

Results flagged for a closer look

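The results below are those in which the difference between the GFP fractions differed between the 2 cell types of a stage, by the interaction in edgeR's quasi-likelihood test at an adjusted p under 0.01. Values are differences of log2 fold changes.

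For the EC difference minus the HC difference, 22 members passed. The maternally expressed were Cdkn1c at -2.76, Grb10 at -2.81, Meg3 at -2.33, Rian at -3.25, Zim1 at -3.71, Gnas at -3.31, Igf2r at -1.77 and Asb4 at -4.70. The paternally expressed were Rtl1 at -5.33, Peg3 at -2.92, Usp29 at -4.70, Mest at -4.61, Ndn at -2.91, Magel2 at -4.12, Snrpn at -1.76, Peg12 at -2.93, Nnat at -2.47, Airn at -2.05, Slc38a4 at -3.35, Peg10 at -4.21, Sgce at -1.37 and Kcnq1ot1 at 0.95. The Magel2 value rests on a fitted change against a group at 0 and is no bound. The Rtl1, Usp29 and Zim1 values rest on few counts in GFP- HC pools.

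For the MC difference minus the SNS difference in all passing pools, 9 members passed: Cdkn1c at -1.41, Grb10 at 0.66, Igf2r at 1.37, Rtl1 at -2.16, Peg3 at 1.37, Nnat at -0.93, Peg10 at 1.32, Sgce at 0.71 and Nap1l5 at -3.90. In the 62 E11.5 pools that match their label 13 passed: H19 at 0.87, Cdkn1c at -0.83, Grb10 at 0.59, Zim1 at 2.69, Igf2r at 1.23, Dcn at 2.96, Igf2 at 1.70, Peg3 at 1.35, Nnat at -0.81, Airn at 1.496, Peg10 at 1.47, Sgce at 0.61 and Nap1l5 at -3.12. Dcn and Zim1 had few counts in matching SNS pools and Nap1l5 in matching MC pools, so their values are less certain.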

How the results depend on the processing

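Counts of members that passed were recomputed under each alternative. The EC counts lay within 1.5 times their value in 11 of 13 alternatives for higher members (range 4 to 13) and in 12 of 13 for lower members (4 to 8), and the HC count of higher members in 13 of 13 (21 to 28). ERCC size factors gave 4 higher and 8 lower members in EC, and a log2 fold change of at least 1 in size gave 5 higher. Without a gene filter Rasgrf1 passed as lower in HC, a count of 1.

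In MC, with 5 higher in all passing pools, ERCC size factors gave 3, the scanpy t-test 3 and a change of at least 1 in size 2. Lower MC members numbered 1 by the DESeq2 Wald test, 1 with 10 counts in 20 pools, 1 in a fit of 4 populations and 3 at an adjusted p under 0.05. Without the 12 pools against their labels, an alternative chosen after seeing the data, MC had 10 higher and 2 lower, 10 and 2 with DESeq2 size factors, 10 and 3 with scran, 11 and 2 with ERCC, and 11 and 3 by the DESeq2 Wald test. In SNS, with 3 higher and 1 lower in all passing pools, a change of at least 1 in size gave 1 and 0 and ERCC 0 lower, while the DESeq2 Wald test gave 3 lower and an adjusted p under 0.05 gave 2 lower. Without the 12 pools SNS had 7 higher and 5 lower with TMM, with DESeq2 and with scran size factors, 13 and 3 with ERCC, and 7 and 6 by the DESeq2 Wald test. Members higher in SNS than in MC numbered 5 in all passing pools, 11 with ERCC and 2 with a change of at least 1 in size, and without the 12 pools 11 with TMM, 10 with DESeq2, 11 with scran and 15 with ERCC size factors and 10 by the Wald test. The cause of these shifts was not tested, beyond the set of pools or threshold that each alternative changes. The other counts of members stayed within 1.5 times.

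For single members that passed with a change of at least 1 in size, 3 EC values under the alternatives did not pass, all of Dlk1: with ERCC size factors (1.68, adjusted p 0.0439), with the t-test (1.97, adjusted p 0.0317) and without the pool of each fraction farthest in mesenchymal markers, also chosen after seeing the data (1.98, adjusted p 0.019). In HC, 2 of 302 values did not pass, Dcn at 2.62 and Plagl1 at 1.15 under ERCC. In all passing pools Asb4 by the t-test (1.11) and Peg10 under ERCC (1.07) did not pass in MC, nor Mest under ERCC (-0.62) and Gata3 by the t-test (1.60) in SNS. In MC 7 values, all of Gata3, and in SNS 6, all of Plagl1, changed sign from all passing pools, 5 of each without the 12 pools. Of the correlations 29 of 30 values kept their call. No value of a member that passed changed sign and passed.

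No paired analysis was possible because the table's columns carry no pool numbers, so the planned replicate block was not run. Members with few counts are measured with less certainty, and 3 reached 10 counts in fewer than 10 pools of every population. Why these had few counts was not tested.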
